A study of Mus musculus with 24 samples.

Results

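The collagen genes were described in liver and hypothalamus of male ob/ob mice, which lack leptin, from all probe sets whose only annotated gene symbol had the form Col, number, a, number. The rule found 82 of the 45101 probe sets on the array, which belong to 42 of 18194 genes. It takes probe sets by symbol and not by value, but it was chosen with earlier results of these data known. The series holds 24 Affymetrix mouse arrays, 12 of liver and 12 of hypothalamus, each from 1 mouse, with 3 arrays in each of 8 groups. Whether liver and hypothalamus arrays came from the same mice is not given in the sources used here. In the regular arm, mice received γ-oryzanol or its vehicle methylcellulose (spelled methylcellurose in the labels), and in the Nano-Orz arm they received γ-oryzanol encapsulated in nanoparticles or its vehicle water, in all groups by mouth for 4 weeks until 9 weeks of age on chow. All mice carried the ob/ob genotype, no array came from a lean mouse, and the 3 mice of a group had been picked as representative of a larger group. The Nano-Orz arrays had no group given empty nanoparticles, so γ-oryzanol and its carrier cannot be told apart. Arrays are called Orz 1 to Orz 3 for treated mice and Veh 1 to Veh 3 for vehicle mice, numbered within each tissue and arm.

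Collagens are secreted or membrane proteins built from 3 chains wound into a triple helix. The fibrillar collagens, with type I (chains Col1a1 and Col1a2) and type III (Col3a1) as the most abundant, form the tensile fibrils of connective tissue. Type IV (Col4a1 to Col4a6) forms the network of basement membranes, type VI (Col6a1 to Col6a6) beaded filaments, and type VIII (Col8a1 and Col8a2) short-chain networks of vessels and other membranes. In liver, fibrillar collagen is made chiefly by stellate cells and portal fibroblasts, and its accumulation is the hallmark of fibrosis. In brain, neurons and glia make little of it, and its main sources are fibroblasts of the meninges and around vessels.

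The values are log2 signals from the distribution free weighted method (DFW). DFW draws arrays together, so that 98.998% to 99.656% of all probe sets span less than 0.001 log2 units over the 6 arrays of a tissue and arm. Of the 82 collagen probe sets, 3, 5, 1 and 2 spanned 0.001 or more in liver regular, liver Nano-Orz, hypothalamus regular and hypothalamus Nano-Orz. Differences are therefore given as treated minus vehicle in thousandths of a log2 DFW unit, with the standard error from limma. They rank probe sets, and they are not fold changes. Calls were made by rank product where its estimated proportion of false positives (pfp) lay under 0.05. It ranks the differences of all 9 treated and vehicle pairs over the whole array. Its pfp comes from permuting the values over probe sets within each array, so it does not measure the spread between mice. Of all probe sets called, 61.8% to 71.2% were among the 1% of widest spread in their comparison. With 3 arrays against 3, an exact permutation test of a single probe set cannot go below a two-sided p of 0.1. By vehicle means of both arms, all 10 neuronal markers had higher signals in hypothalamus and all 9 hepatocyte markers had higher signals in liver. This check was not made mouse by mouse. Ttr is on both the hepatocyte and the choroid plexus lists. In hypothalamus of the Nano-Orz arm, the summed hepatocyte signal was 85025, 78050 and 1428 in Veh 1, 2 and 3. The highest signal of any probe set there was 16.4, against 14.7 in liver of that arm. The arrays carry no detection calls, so whether a collagen of low signal was expressed is unknown.

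In hypothalamus, 8 collagen probe sets of 7 genes were called lower in mice treated with Nano-Orz than in vehicle mice, and none was called higher. These were the fibrillar chains Col1a1, Col1a2 (by 2 probe sets) and Col3a1, the type VI chain Col6a2, both type VIII chains Col8a1 and Col8a2, and Col9a3, a chain of type IX collagen, which sits on the surface of cartilage fibrils. The 8 were 9.76% of the 82 collagen probe sets, against 0.734% of all probe sets called lower and 0.242% called higher. In tissue RNA, fewer cells of a type and less RNA per cell cannot be told apart. Of the 6 collagen probe sets among the 452 of widest spread on these arrays, 5 were called lower, and 51.3% of all 452 were called lower. limma called 0 probe sets at an adjusted p under 0.05, collagen or other. At an unadjusted p under 0.05 it gave 6 collagen probe sets lower and 3 higher, or 7.32% and 3.66% of the 82, against 2.88% and 3.22% of all probe sets.

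Col1a2 and Col3a1 had the largest differences of all collagens in this comparison. Col1a2 (probe set 1450857_a_at, vehicle mean 8.31) lay at -4.54, -5.23 and -0.497 thousandths from the vehicle mean in Orz 1, 2 and 3, and at -0.608, -0.649 and 1.26 thousandths in Veh 1, 2 and 3. Its difference was -3.42 thousandths (SE 1.48, pfp 0.00423). Orz 1 and Orz 2 were thus far below all vehicle arrays, while Orz 3 lay among them. Col3a1 (1427883_a_at, vehicle mean 6.52) lay at -3.02, -3.05 and -0.564 thousandths in the treated arrays and at -0.758, -0.0873 and 0.845 thousandths in the vehicle arrays. Its difference was -2.21 thousandths (SE 0.870, pfp 0.000943), and here too Orz 1 and Orz 2 were the lowest arrays and Orz 3 lay among the vehicles. The second Col1a2 probe set called (1423110_at) differed by -0.271 thousandths (SE 0.131, pfp 0.0116), and again Orz 3, at -0.139 thousandths, lay inside the vehicle range of -0.185 to 0.241 thousandths. The third Col1a2 probe set (1446326_at) went the other way by 0.00103 thousandths (SE 0.000883) and was not called. The second Col3a1 probe set (1427884_at) differed by -0.0147 thousandths (SE 0.00826, pfp 0.442).

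For Col1a1, which supplies most chains of type I collagen, the treated arrays lay at -0.165, -0.114 and -0.0443 thousandths and the vehicle arrays at -0.0174, -0.0334 and 0.0508 thousandths by probe set 1423669_at. The groups did not overlap, and the difference was -0.108 thousandths (SE 0.0399, pfp 0.0156). The other Col1a1 probe set (1455494_at) differed by -0.00232 thousandths (SE 0.0161, pfp 1.07) and overlapped. The 2 probe sets of the gene therefore gave different pictures, and calls for Col1a1 rest on 1 of them. That call was lost after quantile normalization, at -0.0172 thousandths (pfp 1.17).

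**Figure D1:**
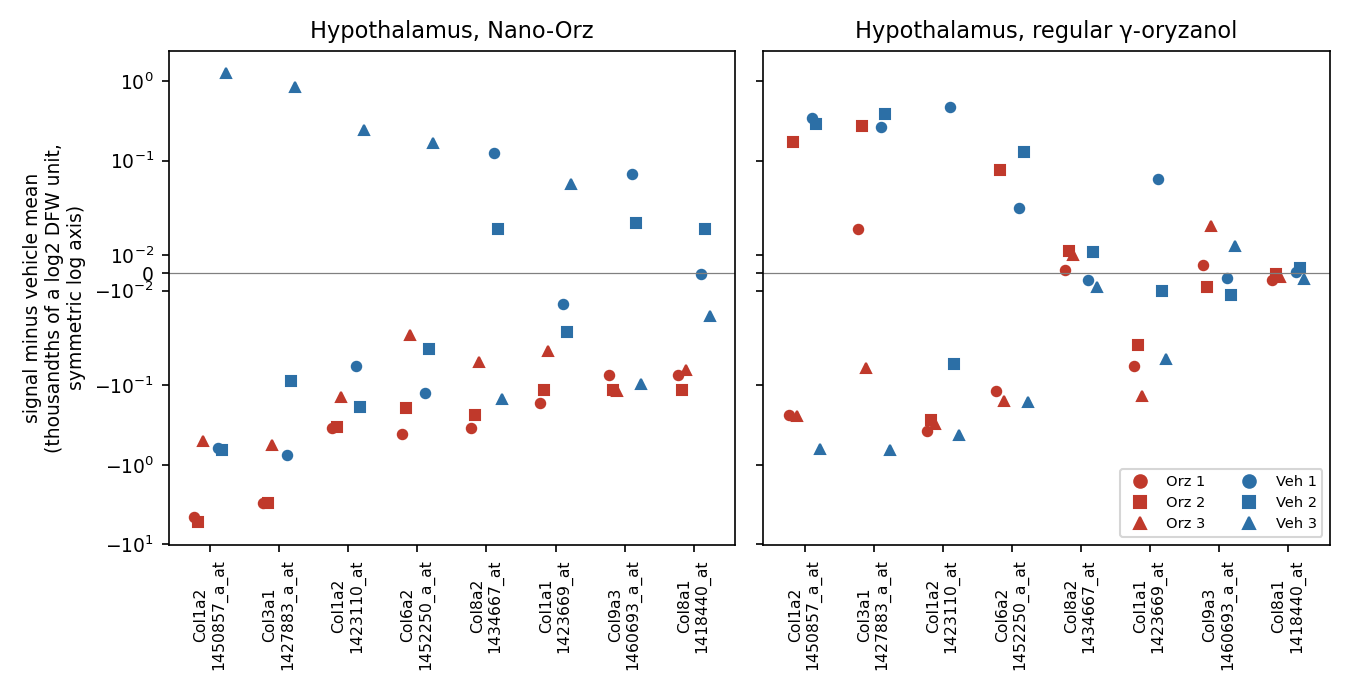
Signal of the 8 collagen probe sets called lower in hypothalamus with Nano-Orz, in each array of the Nano-Orz arm (left) and of the regular arm (right), as distance from that arm's vehicle mean in thousandths of a log2 DFW unit on a symmetric log axis. Each point is 1 mouse (red, treated, and blue, vehicle). On the left, Orz 2 lies below all 3 vehicle mice for 8 of 8 probe sets, Orz 1 for 7 and Orz 3 for 3, and on the right treated and vehicle mice overlap for all 8, none of which is called.

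The promoters of Col1a2, Col3a1, Col6a2, Col8a1 and Col8a2 are printed here because these are the 5 genes called lower for which RefSeq promoters were given, and Col6a2 has 2 windows, which overlap. Each runs from 250 bases before to 50 bases after a start site in RefSeq (build GRCm38.p6), 5′ to 3′ on the strand of the gene. This site is the start of the gene, other than for the downstream window of Col6a2, whose site lies inside the gene. Capitals mark the CCAAT box (CCAAT), the GC box (GGGCGG), the TATA box (TATAAA) and an AP-1 motif (TGANTCA), searched on both strands. RefSeq promoters were given for 33 of the 42 collagen genes and not for the other 2 genes called lower, Col1a1 and Col9a3.
Col1a2, chr6:4505368-4505667, plus strand: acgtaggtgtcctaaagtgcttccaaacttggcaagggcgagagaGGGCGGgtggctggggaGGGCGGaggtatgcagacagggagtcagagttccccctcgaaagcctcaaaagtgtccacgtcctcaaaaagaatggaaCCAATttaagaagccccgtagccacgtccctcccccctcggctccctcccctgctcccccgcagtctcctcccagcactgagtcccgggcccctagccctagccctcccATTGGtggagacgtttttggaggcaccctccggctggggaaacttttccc
Col3a1, chr1:45311288-45311587, plus strand: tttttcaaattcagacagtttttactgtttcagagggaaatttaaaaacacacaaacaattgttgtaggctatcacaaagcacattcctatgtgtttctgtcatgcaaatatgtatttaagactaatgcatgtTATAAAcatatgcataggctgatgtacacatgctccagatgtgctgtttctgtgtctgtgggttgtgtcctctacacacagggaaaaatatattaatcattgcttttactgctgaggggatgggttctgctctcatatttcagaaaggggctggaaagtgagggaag
Col6a2 downstream start, chr10:76623355-76623654, minus strand: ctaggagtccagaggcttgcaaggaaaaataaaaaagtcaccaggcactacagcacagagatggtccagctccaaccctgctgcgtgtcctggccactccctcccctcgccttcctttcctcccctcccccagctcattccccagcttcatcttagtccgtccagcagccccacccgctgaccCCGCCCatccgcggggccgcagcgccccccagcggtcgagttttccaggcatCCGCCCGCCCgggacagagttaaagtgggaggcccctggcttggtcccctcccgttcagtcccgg
Col6a2 upstream start, chr10:76623581-76623880, minus strand: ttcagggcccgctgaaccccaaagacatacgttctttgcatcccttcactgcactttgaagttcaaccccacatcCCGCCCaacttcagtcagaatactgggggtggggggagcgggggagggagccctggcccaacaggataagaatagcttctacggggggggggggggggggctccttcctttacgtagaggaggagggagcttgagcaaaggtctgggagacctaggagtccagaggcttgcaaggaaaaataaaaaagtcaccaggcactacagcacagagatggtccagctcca
Col8a1, chr16:57754688-57754987, minus strand: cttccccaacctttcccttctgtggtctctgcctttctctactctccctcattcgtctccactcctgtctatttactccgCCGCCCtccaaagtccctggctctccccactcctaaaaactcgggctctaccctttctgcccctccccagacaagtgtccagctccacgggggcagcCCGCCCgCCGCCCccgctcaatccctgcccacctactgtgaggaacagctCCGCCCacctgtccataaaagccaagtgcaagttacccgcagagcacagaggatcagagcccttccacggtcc
Col8a2, chr4:126286544-126286843, plus strand: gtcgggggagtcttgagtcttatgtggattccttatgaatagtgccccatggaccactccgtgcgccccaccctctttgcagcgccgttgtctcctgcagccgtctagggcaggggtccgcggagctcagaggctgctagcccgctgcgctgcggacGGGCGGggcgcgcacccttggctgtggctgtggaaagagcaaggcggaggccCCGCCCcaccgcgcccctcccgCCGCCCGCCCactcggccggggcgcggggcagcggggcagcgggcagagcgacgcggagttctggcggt

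The windows of Col1a2, Col6a2, Col8a1 and Col8a2 held the GC box on either strand, and that of Col3a1 did not. Col1a2 also held the CCAAT box on the plus strand from base -109 and on the minus strand from base 1. Bases are counted from the start site of each window without a base 0. Col3a1 held the TATA box from base -117, and none of the windows printed held the AP-1 motif. The GC box matches from bases -19 and -15 of Col8a2 share letters, as do those from bases -15 and -11 in the downstream window of Col6a2. Over all 32851 promoter windows of this length, 35.7% held the GC box, 37.4% the CCAAT box, 13.6% the TATA box and 7.81% the AP-1 motif. Of the 36 collagen windows, 61.1%, 36.1%, 13.9% and 2.78% held them. These matches are a description of the letters.

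The type VI and type VIII chains were called with smaller differences. Col6a2 (1452250_a_at) lay at -0.411, -0.191 and -0.0352 thousandths in the treated arrays and at -0.126, -0.0432 and 0.169 thousandths in the vehicle arrays, a difference of -0.212 thousandths (SE 0.129, pfp 0.0347). Orz 3 was again among the vehicles. Col6a2 was not called after quantile normalization, at -0.0797 thousandths (pfp 0.699), nor without any 1 array other than Orz 3, and without Orz 1 it lay at -0.113 thousandths (pfp 0.149). Its neighbour Col6a1 on chromosome 10 (1448590_at) differed by -0.0761 thousandths (SE 0.0413, pfp 0.0705) and the second Col6a2 probe set (1426947_x_at) by -0.0935 thousandths (SE 0.0573, pfp 0.0588), neither of which was called. Col6a3 (1424131_at), the third chain of the trimer, differed by -1.67e-05 thousandths (SE 0.00264).

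Col8a2 (1434667_at) lay at -0.342, -0.235 and -0.0502 thousandths in the treated arrays and at 0.125, 0.0247 and -0.150 thousandths in the vehicle arrays, a difference of -0.209 thousandths (SE 0.108, pfp 0.0141). Here Veh 3 was the lowest vehicle array, not the highest. Col8a1 (1418440_at) lay at -0.0731, -0.113 and -0.0633 thousandths in the treated arrays and at -0.000602, 0.0248 and -0.0242 thousandths in the vehicle arrays. Its groups did not overlap and its difference was -0.0831 thousandths (SE 0.0190, pfp 0.0144). A second Col8a1 probe set (1455627_at) did not overlap either, at -0.0134 thousandths (SE 0.00244), but was not called (pfp 0.307). The third (1418441_at) differed by -0.00288 thousandths (SE 0.00484) and overlapped.

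Col9a3 (1460693_a_at) lay at -0.0741, -0.115 and -0.119 thousandths in the treated arrays and at 0.0676, 0.0284 and -0.0960 thousandths in the vehicle arrays, a difference of -0.103 thousandths (SE 0.0472, pfp 0.0347). Veh 3 was below Orz 1, so the groups overlapped. The other Col9a3 probe sets were not called, with -0.0333 thousandths (SE 0.0149, pfp 0.167) for 1460734_at and -0.000361 thousandths (SE 0.000589) for 1420280_x_at. After quantile normalization the mean differences of Col9a3 and Col8a1 turned to 0.00252 and 0.0483 thousandths, so the direction of these 2 depended on scaling. Of the 8 probe sets, Col1a2 (1450857_a_at) and Col3a1 were still called lower after it, and neither Col8a2, at -0.123 thousandths (pfp 0.149), nor Col1a2 by 1423110_at, at -0.198 thousandths (pfp 0.166), was.

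The 8 called probe sets thus fell into 2 patterns over the vehicle mice. For 5 of them, Col1a1, both of Col1a2, Col3a1 and Col6a2, Veh 3 was the highest of the 6 arrays. For the other 3, Col8a1, Col8a2 and Col9a3, Veh 3 was the lowest vehicle array. Orz 3 was the highest treated array for 7 of the 8. Leaving out 1 treated array gave 8, 6 and 10 collagen probe sets called lower without Orz 1, 2 and 3. Leaving out 1 vehicle array gave 2, 3 and 0 without Veh 1, 2 and 3. These counts are over all 82 and are not always of the same probe sets. Of the 8, Col6a2 and Col9a3 were each called in 1 of these 6 settings, and Col1a1, Col8a1 and Col8a2 in 3. Col1a2 was called in 4 by 1423110_at and in 5 by 1450857_a_at, and Col3a1 in 5.

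**Figure D2:**
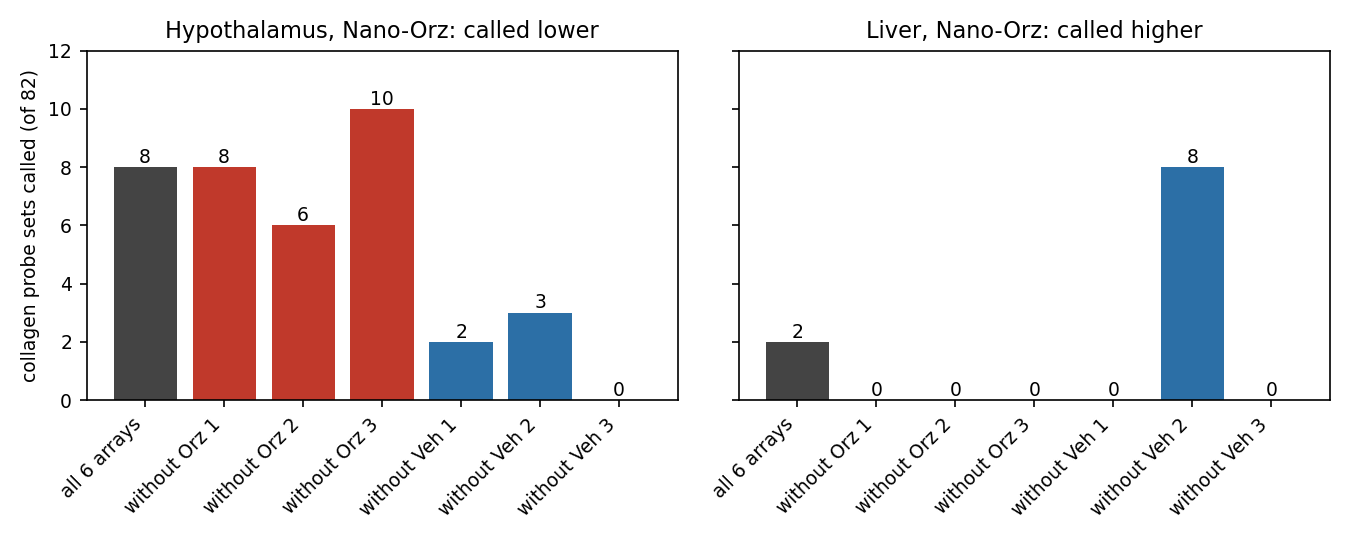
Number of the 82 collagen probe sets called, with all 6 arrays and after leaving out each array in turn, for calls lower in hypothalamus (left) and higher in liver (right), both with Nano-Orz. The bars fall from 8 to 0 on the left without Veh 3, and on the right from 2 to 0 without any array but Veh 2, without which they reach 8. The probe sets counted are not always the same from bar to bar.

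The calls fell in 4 structural classes. Of the 21 fibrillar probe sets, 14 had negative and 7 positive differences in hypothalamus with Nano-Orz, with a median of -0.00333 thousandths against 2.43e-05 over all probe sets, and 4 were called lower. Of the 5 short-chain probe sets 4 were negative, of the 7 of type VI 6, and of the 24 fibril-associated 14, and 2, 1 and 1 of these were called. The 12 type IV probe sets were 8 negative and 4 positive, with a median of -0.000361 thousandths, and none was called. The 7 transmembrane, 3 multiplexin and 1 type VII probe sets had no call either. Over all 82, 52 were negative and 30 positive, with a median of -0.000339 thousandths. The 74 probe sets with no call lay between -0.0935 and 0.0385 thousandths, and 60 of them within 0.01 of 0.

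The 3 largest positive differences were those of Col27a1 (1429549_at, a fibrillar chain) at 0.0385 thousandths (SE 0.0234, pfp 0.0963), Col25a1 (1438540_at, a transmembrane collagen of neurons) at 0.0303 (SE 0.00878, pfp 0.0730) and Col17a1 (1418799_a_at, a transmembrane collagen of epithelial anchoring complexes) at 0.0171 (SE 0.00440, pfp 0.227). For Col25a1 and Col17a1 the groups did not overlap, with every treated array above every vehicle array. Such separation upward was found for 3 collagen probe sets and downward for 6, or 3.66% and 7.32%, against 6.18% and 4.95% of all probe sets. The basement membrane neighbours Col4a1 and Col4a2, which start head to head on chromosome 8, differed by 0.002005 thousandths (1452035_at, SE 0.000927) and 0.00534 thousandths (1424051_at, SE 0.00181, no overlap, limma unadjusted p = 0.0341, adjusted p = 0.801). Col5a2 (1422437_at), which lies beside Col3a1 on chromosome 1 and joins type I fibrils as part of type V collagen, differed by -0.00970 thousandths (SE 0.00267) with no overlap, and its second probe set (1450625_at) by -0.00548 (SE 0.0142).

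**Figure D3:**
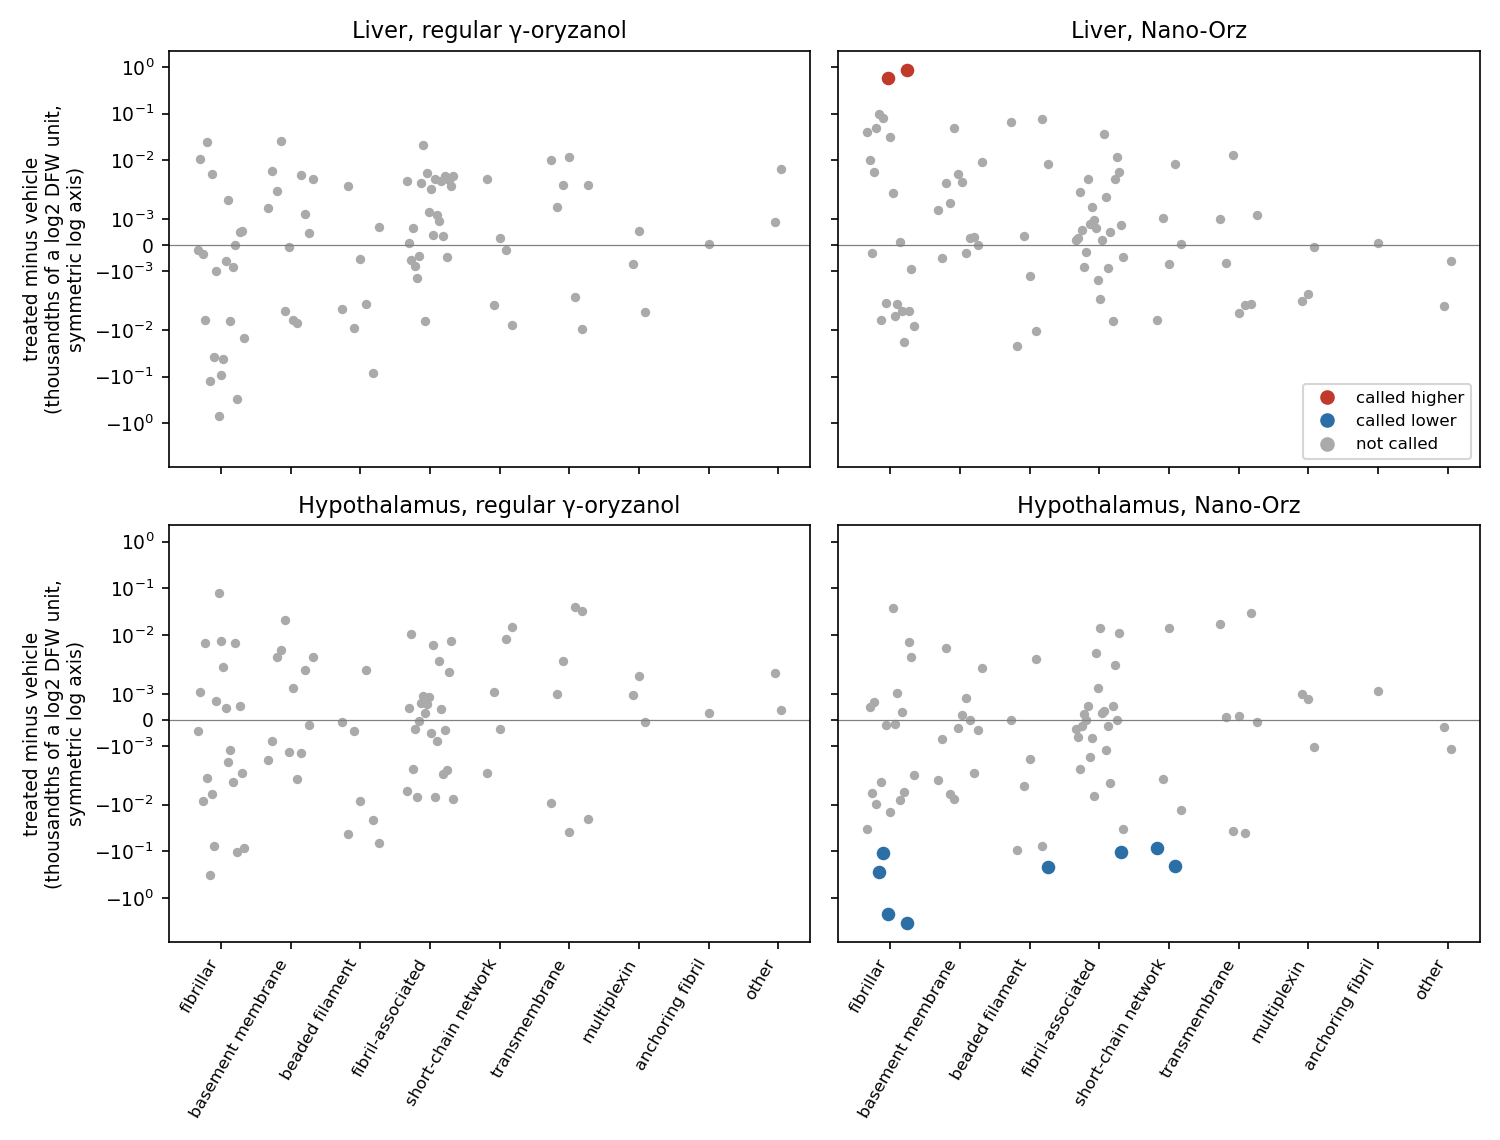
Difference of treated minus vehicle mean for each of the 82 collagen probe sets by structural class, in thousandths of a log2 DFW unit on a symmetric log axis, for the 4 comparisons. Coloured points were called by rank product and grey points were not. The calls are 2 fibrillar probe sets in liver and 8 of 4 classes in hypothalamus, both with Nano-Orz.

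In hypothalamus with regular γ-oryzanol, no collagen probe set was called higher or lower by rank product, against 0.166% and 0.384% of all probe sets. limma called 0 at an adjusted p under 0.05, and at an unadjusted p under 0.05 it gave 2 collagen probe sets higher and 1 lower, against 3.22% and 2.46% of all. Col1a2 (1450857_a_at, vehicle mean 9.21) lay at -0.238, 0.171 and -0.244 thousandths in the treated arrays and at 0.347, 0.287 and -0.635 thousandths in the vehicle arrays, a difference of -0.104 thousandths (SE 0.320, pfp 0.176). Col3a1 (1427883_a_at) lay at 0.0251, 0.273 and -0.0597 thousandths in the treated and at 0.262, 0.387 and -0.649 thousandths in the vehicle arrays, a difference of 0.0794 thousandths (SE 0.316). In both genes Veh 3 was the lowest array and the groups overlapped. Col1a1 differed by -0.0771 thousandths (1423669_at, SE 0.0395, pfp 0.142) and -0.0863 thousandths (1455494_at, SE 0.0596, pfp 0.250). The largest negative difference was that of Col1a2 (1423110_at) at -0.316 thousandths (SE 0.244, pfp 0.148), where the treated arrays lay at -0.371, -0.270 and -0.306 thousandths and Veh 3 lower still at -0.424.

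After Col3a1, the largest positive differences in this arm were those of Col23a1 (1429210_at) and Col25a1 (1438540_at), both transmembrane collagens, at 0.0403 thousandths (SE 0.112) and 0.0328 thousandths (SE 0.0374). Neither was called. Col4a1 differed by 0.00344 thousandths (1452035_at, SE 0.000993), with no overlap between the groups, a limma p of 0.0200 and an adjusted p of 0.871. Col4a2 differed by 0.00344 thousandths (SE 0.00194), Col6a1 by -0.0210 (SE 0.0392) and Col6a2 by -0.0652 (1452250_a_at, SE 0.104), and Col5a2 by -0.00275 (1422437_at, SE 0.00371). Over all 82, 42 differences were negative and 40 positive. Treated and vehicle arrays were apart for 4 collagen probe sets upward and 4 downward, or 4.88% each, against 5.87% and 5.04% of all probe sets.

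The difference between the arms' effects in hypothalamus was tested on its own by limma over 12 arrays. This test sets against each other differences from arms whose signals were apparently scaled apart. None of the 82 collagen probe sets passed an adjusted p under 0.05, against 2 of all 45101, or 0.00443%. At an unadjusted p under 0.05, 8 collagen probe sets of 7 genes were found, or 9.76%, against 6.87% of all. The smallest p was that of Col8a1 (1418440_at), with an effect of Nano-Orz minus that of regular γ-oryzanol of -0.0809 thousandths (SE 0.0198, limma unadjusted p = 0.00290, adjusted p = 0.393). For Col3a1 (1427883_a_at) the same difference was -2.29 thousandths (SE 0.959, limma unadjusted p = 0.0412, adjusted p = 0.694).

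In liver with Nano-Orz, 2 collagen probe sets were called higher, those of Col1a2 and Col3a1, and none was called lower. They made up 2.44% of the 82, against 0.297% of all probe sets called higher and 0.182% called lower, and both lay among the 1% of widest spread, of which 20.4% were called higher. limma called 0 of all probe sets at an adjusted p under 0.05, and at an unadjusted p under 0.05 it gave 3 collagen probe sets higher and 2 lower, against 2.14% and 2.21% of all. Col1a2 (1450857_a_at, vehicle mean 8.80) lay at 2.58, 0.0256 and 0.00646 thousandths in Orz 1, 2 and 3 and at -1.52, 3.77 and -2.26 thousandths in Veh 1, 2 and 3. Its difference was 0.870 thousandths (SE 1.92, pfp 0.0380). Col3a1 (1427883_a_at, vehicle mean 9.43) lay at 2.11, -0.0359 and -0.310 thousandths in the treated and at -1.89, 4.87 and -2.98 thousandths in the vehicle arrays, a difference of 0.588 thousandths (SE 2.37, pfp 0.0320).

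Orz 1 and Veh 2 were the high arrays for both genes, and the vehicle mouse Veh 2 was the highest of the 6. The groups overlapped over their whole treated range, and each difference was smaller than its standard error. Without Veh 3 the differences turned to -0.258 thousandths for Col1a2 and -0.904 for Col3a1, and without Orz 1 or Veh 1 that of Col3a1 turned to -0.173 and -0.356. Leaving out Veh 2 gave 8 collagen probe sets called higher, and leaving out each other array gave 0.

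The highest array was shared by other collagens. Veh 2 was the highest array for all 6 collagen probe sets among the 1% of widest spread in this arm. The lowest array was Veh 1 for 3 of them and Veh 3 for 3. Col1a1 (1423669_at) lay at 0.209, 0.0712 and -0.0400 thousandths in the treated and at -0.253, 0.424 and -0.172 thousandths in the vehicle arrays, a difference of 0.0799 (SE 0.208, pfp 0.239), and its other probe set (1455494_at) differed by -0.00841 (SE 0.148). Col1a2 by probe set 1423110_at differed by 0.0963 thousandths (SE 0.351, pfp 0.177). The neighbours of Col3a1 and of each other gave 0.0489 thousandths (SE 0.396) for Col5a2 (1422437_at), 0.0785 (SE 0.327) for Col6a1 and 0.00856 (SE 0.196) for Col6a2 (1452250_a_at), with Veh 2 at 0.809, 0.609 and 0.322 thousandths. The largest negative differences were small, at -0.0224 thousandths for Col6a2 (1426947_x_at, SE 0.0309), -0.0178 for Col5a2 (1450625_at, SE 0.0136) and -0.0104 for Col6a5 (1446685_at, SE 0.00628).

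**Figure D4:**
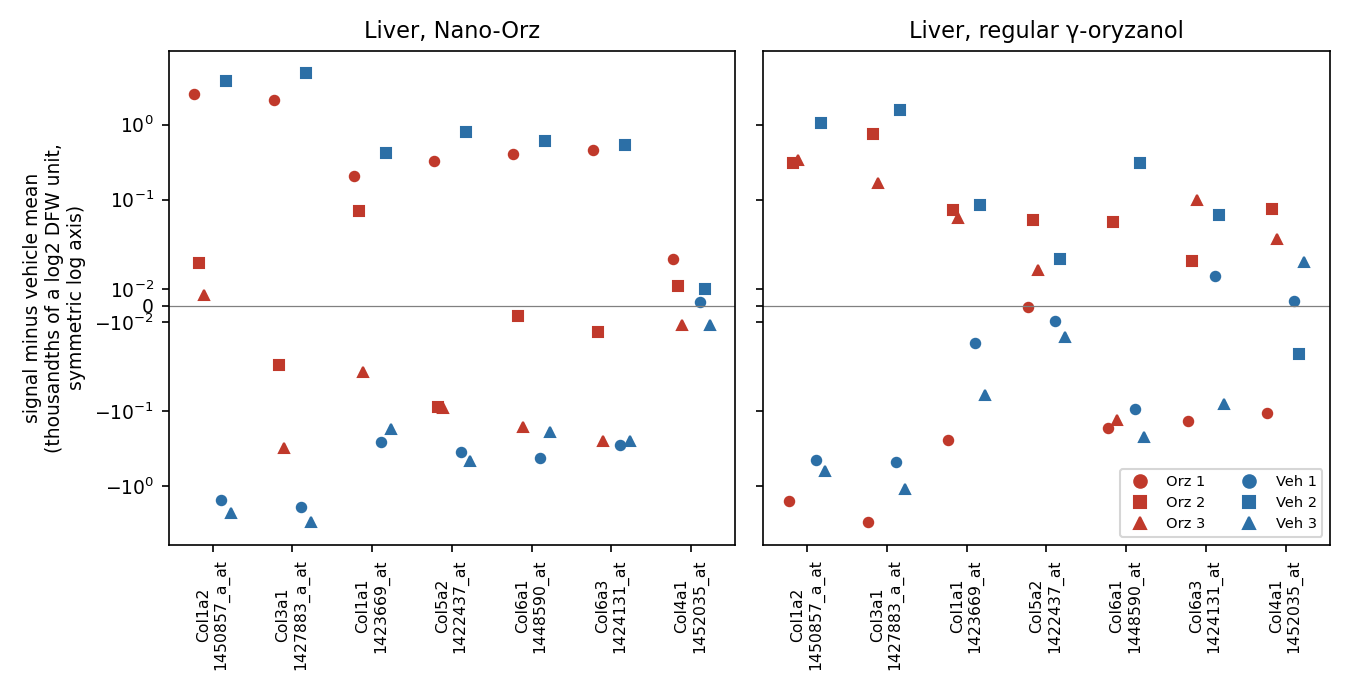
Signal of 7 collagen probe sets in each liver array of the Nano-Orz arm (left) and the regular arm (right), as distance from that arm's vehicle mean in thousandths of a log2 DFW unit on a symmetric log axis. Each point is 1 mouse (red, treated, and blue, vehicle). On the left, Orz 1 and Veh 2 stand above the others for the fibrillar and type VI chains, and for Col4a1 Orz 1 and Orz 2 lie above Veh 2.

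Of the type IV chains none was called, and the largest difference was that of Col4a5 (1425476_at) at 0.0482 thousandths (SE 0.0481, pfp 0.364). Col4a1 differed by 0.00351 thousandths by probe set 1426348_at (SE 0.000567, limma unadjusted p = 0.00199, adjusted p = 1), with the treated arrays at 0.00339, 0.00355 and 0.00360 and the vehicle arrays at -0.000322, 0.000864 and -0.000542 thousandths. This was the collagen difference that was largest against its standard error in liver, and its rank product pfp was 1.15. The other Col4a1 probe set (1452035_at) differed by 0.00931 thousandths (SE 0.0121) and Col4a2 by 0.00336 (SE 0.00434), both with overlap, and in Col4a2 Orz 1 and Veh 2 were again the highest arrays. Of the 12 type IV probe sets 9 were positive. Treated and vehicle arrays were apart upward for 6 collagen probe sets and downward for 2, or 7.32% and 2.44%, against 4.34% and 4.67% of all probe sets.

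In liver with regular γ-oryzanol, no collagen probe set was called higher or lower by rank product, against 0.182% and 0.226% of all probe sets. limma called 0 at an adjusted p under 0.05, and at an unadjusted p under 0.05 it gave 1 collagen probe set higher and 1 lower, against 2.59% and 1.99% of all. The largest negative differences were those of the markers of type I and III collagen. Col3a1 (1427883_a_at, vehicle mean 8.93) lay at -3.00, 0.757 and 0.168 thousandths in the treated and at -0.472, 1.56 and -1.08 thousandths in the vehicle arrays, a difference of -0.692 thousandths (SE 1.29, pfp 0.0860). Col1a2 (1450857_a_at) lay at -1.58, 0.313 and 0.342 thousandths in the treated and at -0.444, 1.07 and -0.622 thousandths in the vehicle arrays, a difference of -0.307 (SE 0.761, pfp 0.135). Orz 1 was the lowest array in both genes, Veh 2 was the highest, and the groups overlapped. Col1a2 by probe set 1423110_at differed by -0.124 thousandths (SE 0.447) and Col1a1 by -0.0376 (1423669_at, SE 0.102) and -0.0149 (1455494_at, SE 0.0462).

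The largest positive differences in this arm were those of Col4a5 (1425475_at, a type IV chain) at 0.0260 thousandths (SE 0.00674, no overlap, limma unadjusted p = 0.0129, adjusted p = 1), Col5a2 (1422437_at) at 0.0247 (SE 0.0196) and Col16a1 (1427986_a_at, a fibril-associated collagen) at 0.0209 (SE 0.0109). Col27a1 (1429549_at) differed by -0.0423 thousandths (SE 0.0119) with no overlap. Col4a1 differed by 0.00407 thousandths (1452035_at, SE 0.0524) and Col4a2 by 0.00225 (SE 0.00730), Col6a1 by -0.0822 (SE 0.160) and Col6a2 by 0.000706 (1452250_a_at, SE 0.0277). Treated arrays stood apart upward for 4 collagen probe sets and downward for 1, or 4.88% and 1.22%, against 5.02% and 4.23% of all. Between the liver arms, limma found no collagen whose effects differed at an adjusted p under 0.05, and 3 at an unadjusted p under 0.05, or 3.66% against 5.5% of all.

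The genes that make, bind and remove collagen were counted from lists drawn up with earlier results of these data known, with 1 probe set a gene. In hypothalamus with Nano-Orz, 8 of 21 fibril partners were called lower and none higher, against 0.734% and 0.242% of all probe sets. Fibril partners are the small proteoglycans and glycoproteins that bind collagen and set fibril thickness. The list had 16 negative and 5 positive differences, with a median of -0.00784 thousandths against 2.43e-05 over all probe sets. Fmod (fibromodulin) differed by -17.4 thousandths (pfp 0.000278), Dcn (decorin) by -6.10, Ogn (osteoglycin) by -1.73 (pfp 0.00254), Fn1 (fibronectin) by -0.666 (pfp 0.0142), Lum (lumican) by -0.586 (pfp 0.000625) and Bgn (biglycan) by -0.563 (pfp 0.0148). The other 2 calls were smaller. Dcn lay at -8.51, -8.70 and -1.10 thousandths in the treated and at -0.379, -0.0282 and 0.407 in the vehicle arrays, so Orz 3 was nearest the vehicles but still below them. Fmod lay at -27.6, -24.4 and -0.291 thousandths in the treated and at -5.03, -2.50 and 7.53 in the vehicle arrays, with Orz 3 among the vehicles. The count was 5, 5 and 9 without Orz 1, 2 and 3, 3, 4 and 2 without Veh 1, 2 and 3, and 4 after quantile normalization.

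Of 27 collagen biosynthesis genes, 1 was called lower, Pcolce, the enhancer of the protease that cuts the C-propeptide from fibrillar procollagen. It lay at -0.798, -0.731 and -0.228 thousandths in the treated and at 0.0603, 0.0397 and -0.100 in the vehicle arrays, with no overlap, and differed by -0.586 thousandths (pfp 0.000784). It was called lower without each of the 6 arrays in turn and after quantile normalization too. None of 19 turnover genes, which include matrix proteases and their inhibitors, and none of 9 collagen receptors was called in either direction by rank product. Of 14 regulators, whose genes are named after their values were seen, Ccn2 (connective tissue growth factor) was called lower at -0.811 thousandths (pfp 0.0127), with the treated arrays at -1.79, -1.46 and 0.819 and the vehicle arrays at -1.16, -0.488 and 1.65. The groups overlapped, and no regulator was called lower when any array other than Orz 3 was left out, or after quantile normalization. With regular γ-oryzanol in hypothalamus none of the 5 lists had a call, and neither had any in liver with regular γ-oryzanol. In liver with Nano-Orz, Lum was called higher at 0.596 thousandths (pfp 0.0468) with Veh 2 again the highest array at 2.78 thousandths, and Smad7, an inhibitor of TGF-β signalling, lower at -0.655 thousandths (pfp 0.0291). No fibril partner was called higher when any array other than Veh 2 was left out, and no regulator was called lower without Orz 2, Veh 1 or Veh 3. After quantile normalization neither Lum nor Smad7 was called.

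Markers of the meninges and choroid plexus were lower in hypothalamus in the Nano-Orz arm as well. Their lists too were drawn up with earlier results of these data known. In this arm 0.734% of all probe sets, and 51.3% of the 452 of widest spread, were called lower. All 18 meningeal fibroblast markers had negative differences, with a median of -2.20 thousandths, and 16 were called lower, among them Slc47a1 at -19.3 thousandths, Igf2 at -12.5 and Nov at -7.29. Their summed linear signal ran from 10312 to 10352 in treated and from 10351 to 10359 in vehicle arrays. Orz 3 was the highest treated array for 18 of the 18 and Veh 3 the highest vehicle array for 16. The list shares 4 genes, Dcn, Lum, Ogn and Fmod, with the fibril partners. Its count of calls was 7 without Veh 3 and 11 after quantile normalization. All 10 choroid plexus markers were negative too, with a median of -2.72 thousandths, and 9 were called lower, but with another order of mice: Veh 3 was the lowest vehicle array for 10 of 10, as it was for Col8a1, Col8a2 and Col9a3. Kl lay at -14.1, -14.2 and -11.5 thousandths in the treated and at 9.21, 4.10 and -13.3 thousandths in the vehicle arrays. The count of choroid plexus markers called lower was 3 without Veh 1, 3 without Veh 2 and 7 after quantile normalization. The summed choroid plexus signal, most of which is Ttr, ran from 1206 to 10331 in treated and from 1710 to 85311 in vehicle arrays. Of 13 endothelial and 10 mural cell markers none was called in this arm. The part of these tissues in the collagen result was not tested.

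**Figure D5:**
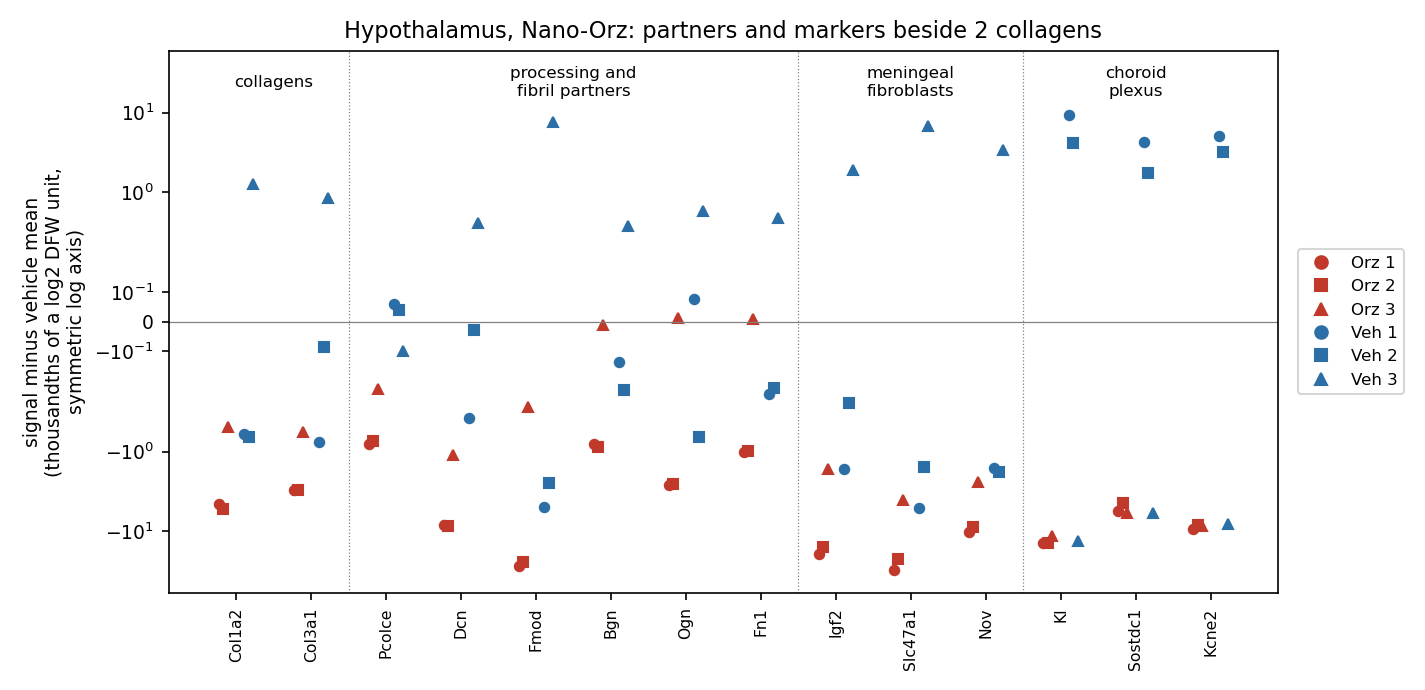
Signal in each hypothalamus array of the Nano-Orz arm for Col1a2 (1450857_a_at) and Col3a1 (1427883_a_at), for genes of collagen processing and fibril binding, and for markers of meningeal fibroblasts and choroid plexus, as distance from the vehicle mean in thousandths of a log2 DFW unit on a symmetric log axis. Each point is 1 mouse (red, treated, and blue, vehicle). All genes shown were called lower. Orz 1 and Orz 2 are lowest and Veh 3 highest for most of the partners and meningeal markers shown, though not for Pcolce. For the choroid plexus markers Veh 3 lies with the treated mice. Of all 21 fibril partners, Veh 3 was the highest vehicle array for 10 and the lowest for 5.

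In the regular arm the same meningeal markers had 11 positive and 7 negative differences in hypothalamus, and none was called. In liver, the list of 15 hepatic stellate cell markers had 1 call in each arm, Lrat lower at -1.39 thousandths with regular γ-oryzanol and Lum higher with Nano-Orz. No stellate marker was called lower in the regular arm without Veh 1, Veh 2 or Veh 3, and none higher in the Nano-Orz arm when any array other than Veh 2 was left out. Of the 15, 11 differences were negative with regular γ-oryzanol and 6 with Nano-Orz, with medians of -0.00389 and 0.00158 thousandths, and the ranges of the summed stellate signal overlapped between treated and vehicle arrays in both arms. Their part in the liver collagen values was not tested.

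The genes whose signal was most like that of type I and III collagen were found over the 12 hypothalamus arrays. The measure was Pearson's r between a gene's deviations from the mean of its own group and the mean deviation of Col1a1, Col1a2 and Col3a1, over the 1820 genes of widest spread. That mean follows Col1a2 (r = 0.993) and Col3a1 (r = 0.986) and hardly Col1a1 (1455494_at, r = 0.271), whose spread is far smaller. The 8 genes outside the collagens were Aebp1 (r = 0.988), Fgl2 (0.980), Slc22a6 (0.976), Fn1 (0.975), Prg4 (0.974), Lyz1 (0.974), Srgn (0.973) and Ranbp3l (0.973). The next collagens were Col13a1 (0.836), Col6a1 (0.796) and Col6a2 (0.754), while Col8a2 (0.301), Col8a1 (0.266) and Col9a3 by a probe set that was not called (1460734_at, -0.168) were far from it. All points share 12 arrays, of which Orz 3 of the Nano-Orz arm lies farthest from its group mean for Col1a2 and Col3a1. In liver, the same measure, computed after the hypothalamus values were seen, gave Ahnak (0.959), Crip1 (0.955), Bnc1 (0.946), Vim (0.941) and Lum (0.933), with Col5a2 (0.918), Col6a3 (0.910) and Col6a1 (0.907) as the nearest collagens after the 3 markers.

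Vehicle mice of the 2 tissues were compared only by the order of their levels, because the signals were apparently scaled apart in each tissue and arm. Within each arm, 58 collagen probe sets had higher signals in hypothalamus in both arms, 8 had higher signals in liver in both, and 16 had opposite orders in the 2 arms. These were 70.7%, 9.76% and 19.5% of the collagen probe sets, against 77.1%, 12.03% and 10.9% of all probe sets, so the first 2 shares were near those of the whole array. The 8 were both probe sets of Col18a1, the source of endostatin, 2 of Col14a1, a fibril-associated collagen, both of Col3a1, and 1 each of Col4a1 and Col5a3. Col18a1 (1418237_s_at) had vehicle means of 11.5 and 10.9 in liver and 7.34 and 7.42 in hypothalamus, for regular γ-oryzanol and Nano-Orz. Col14a1 (1427168_a_at) had 8.86 and 8.97 in liver and 6.61 and 6.45 in hypothalamus, and Col3a1 (1427883_a_at) 8.93 and 9.43 in liver and 7.36 and 6.52 in hypothalamus. The reverse was clearest for Col25a1 (1438540_at), with 5.59 and 5.76 in liver and 10.3 in both arms of hypothalamus. Col1a2 (1450857_a_at) had opposite orders, at 8.59 and 8.80 in liver and 9.21 and 8.31 in hypothalamus. These are log2 DFW levels of 1 probe set each, and levels of different probe sets were not compared.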

How the data were processed

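Each Affymetrix Mouse430_2 array was hybridised with total RNA from 1 tissue of 1 mouse. The deposited log2 values are DFW signals that the authors computed, apparently apart for each tissue and arm. Treated arrays were therefore compared with the vehicle arrays of their own arm. Of the tests, only that of the arm difference joined both arms, by setting their differences against each other. Groups came from the labels. The 24 columns of the 4 arm tables carry animal codes and were not used. Of the probe sets, 34958 have 1 gene symbol, 932 several and 9211 none, and symbols and positions come from RefSeq (GRCm38.p6) by gene ID for all 42 genes.

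Rank product used all 9 pairs of a treated and a vehicle array and 100 permutations, with the pfp threshold at 0.05, and limma 3.58.1 (R 4.3.3) with Benjamini-Hochberg adjustment gave standard errors, p-values and the arm difference. Other steps ran in Python 3.11.15 with pandas 2.3.3, scipy 1.17.1 and numpy 2.4.6, and figures were drawn with matplotlib 3.10.9. The tests were also run on simulated data, whose planted changes were larger than most of the called collagen differences. Those runs therefore say nothing about calls of smaller size. The arrays' number limits the precision.

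The members, lists and tests were chosen with earlier results of these data known. Named were Col1a1, Col1a2 and Col3a1, every called collagen, the 3 largest differences each way, called genes whose other probe sets have the opposite sign, neighbouring genes, up to 6 called genes a list and direction for 4 lists, and the 8 genes most like type I and III collagen. Other names were chosen after their values were seen. Alternatives covered scaling, filters, thresholds, the test, the replicate number as a block and each array left out.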

Additional observations from a re-analysis of the deposited data

Results flagged for a closer look

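A second Col8a1 probe set (1455627_at) differed in opposite directions in the hypothalamus of the 2 arms. The difference was 0.0146 thousandths with regular γ-oryzanol, with the treated arrays at 0.00929, 0.0123 and 0.0223, and -0.0134 thousandths with Nano-Orz, with the treated arrays at -0.0133, -0.0133 and -0.0136. Every treated array lay above every vehicle array in the regular arm and below every vehicle array in the Nano-Orz arm. In limma's test of the difference between the arms, p was 0.0183 before and 0.626 after adjustment over all probe sets, so the difference did not pass. Neither arm's difference was called by rank product. The other Col8a1 probe sets differed by -0.00215 (1418440_at) and 0.00108 thousandths (1418441_at) in the regular arm.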

How the results depend on the processing

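With Nano-Orz in hypothalamus, the 8 collagen probe sets called lower became 2 at a pfp under 0.01, 2 when the groups also had to be apart, 2 after quantile normalization, 2 without the lower-mean probe sets, 5 with 1 probe set a gene, and 0 by standardized rank product. Without the lower-mean probe sets and with 1 probe set a gene, fewer probe sets were tested, and each of the 8 that was still tested stayed called. They were 0 by limma's adjusted p with or without the replicate block, and 5 by the methods' t-test before and 0 after adjustment. Leaving out each array gave 0 to 10 lower and 0 to 1 higher. With Nano-Orz in liver, the 2 called higher became 0 under each of these settings other than the t-test before adjustment, which gave 4, and 1 probe set a gene. Leaving out each array gave 0 to 8. The t-test before adjustment also gave 1 higher and 1 lower in liver and 2 higher and 2 lower in hypothalamus with regular γ-oryzanol, and with Nano-Orz 1 lower in liver and 2 higher in hypothalamus. In liver with regular γ-oryzanol, leaving out each array gave 0 to 2 lower.

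The replicate numbers were not taken as pairs, because in no comparison were all 3 same-numbered correlations over 0.1 (-0.194 to 0.354). This rule cannot exclude pairing in hypothalamus, where each array of treated mice correlated best with the vehicle array of its own number. With that number as a replicate block, rank product gave 10 lower and 2 higher in hypothalamus with Nano-Orz and 2 lower in liver with regular γ-oryzanol, and the other counts were unchanged. Of the 8 called lower, Col8a2 was not called with the block (pfp 0.0827).

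In liver with Nano-Orz, Col1a2 ranged from -0.258 thousandths without Veh 3 to 2.76 without Veh 2, and Col3a1 was -0.173, -0.356 and -0.904 without Orz 1, Veh 1 and Veh 3 and 3.02 without Veh 2. In hypothalamus, quantile normalization turned Col9a3 to 0.00252 and Col8a1 to 0.0483 thousandths. The cause was not tested. No intensity above background was given, so dim probe sets could not be told from undetected ones.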
